A study of Arabidopsis thaliana with 6 samples.

Results

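AT5G41280 and AT3G22060 are genes for secreted cysteine-rich repeat proteins, which carry the DUF26 domain. They were taken by locus from the platform annotation, each through 1 probe set (249295_at for AT5G41280 and 257264_at for AT3G22060), out of 13350 genes with a probe set naming them alone. The genes were chosen by their levels in the 3 groups of this study as well as by their family, so those levels are described here and not tested. The family name comes with the choice of the genes. The platform annotation lists both only by locus.

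DUF26 proteins are a plant family named after a domain with a conserved spacing of cysteines. Some members are secreted and consist of a signal peptide and repeats of the domain. Others, the cysteine-rich receptor-like kinases (CRKs), join the domain to a membrane-spanning segment and a kinase, and the plasmodesmata-located proteins (PDLPs) anchor it at the channels between plant cells. Several CRK and PDLP transcripts of Arabidopsis are known to respond to salicylic acid, pathogens and reactive oxygen.

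Transcripts were measured in whole Arabidopsis thaliana plants on ATH1 microarrays of Affymetrix, where sets of short probes report single transcripts. Of the 6 arrays there are 2 of wild type (line WS, labelled Wassilewskija), 2 of the Octopus mutant DYG25, described in the labels as defective in the formation of phloem and in the pattern of vascular tissue, and 2 of the Octopus overexpressor 35SDYG25. Plants of all groups grew untreated on MS/2 medium at 20 °C and 70% hygrometry. Age, the accession of both lines other than wild type, and the number of plants behind a sample are not in the labels. Nor do the labels spell out the promoter of the overexpressor, whose code begins like the name of the cauliflower mosaic virus 35S promoter, which is active in most plant tissues. Nothing in the labels says that the arrays of a group came from separate cultures, so errors and p-values measure only how far these samples lie apart, and that spread may be technical. Each group rests on 2 arrays, and this number limits the precision.

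Values are log2 GCRMA expression values. A floor was set at the 25th percentile of each array, 2.54 to 2.70, and folds measured against values near it are limited by background. Arrays of a group correlated at 0.984 to 0.989 over the 12363 tested probe sets, and arrays of different groups at 0.939 to 0.975. OCTOPUS (OPS, AT3G09070), whose product sits in the plasma membrane and is needed for phloem to form, stood at 9.52 and 9.83 in the overexpressor, at 2.66 and 2.47 in wild type and at 2.53 and 2.47 in the mutant. This checks the label of the overexpressor, and, with wild type itself at the floor, it does not check the label of the mutant.

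Both genes were highest in the overexpressor and lowest in wild type, and they differed in where the mutant stood. AT5G41280 stood close to wild type in the mutant and 10.3-fold above it in the overexpressor. AT3G22060 had 2 steps of similar size on the log2 scale, from wild type to the mutant and from the mutant to the overexpressor. On all 6 arrays both genes lay above the 25th percentile of their array. In wild type and the mutant AT5G41280 was still below the array medians, with 40.5% to 44.2% of probe sets lower. Background may therefore limit its folds. In whole plants, more cells that make a transcript and more transcript per cell cannot be told apart.

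The log2 value of AT5G41280 was 3.42 and 3.50 on the wild-type arrays, 3.80 and 3.85 on the mutant arrays, and 6.89 and 6.76 on the overexpressor arrays. The 3 groups did not overlap, and the overexpressor stood far apart from the other two. Group means were 3.46 ± 0.06 (SD, n = 2) in wild type, 3.83 ± 0.04 (SD, n = 2) in the mutant and 6.83 ± 0.09 (SD, n = 2) in the overexpressor.

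Compared with wild type, the overexpressor was higher by 3.37 log2 units (SE 0.148), which is 10.3-fold, and the fold ran from 9.58 between the nearest arrays to 11.1 between the farthest. Against the mutant the overexpressor was higher by 3.0 (SE 0.148), or 8.0-fold. The mutant exceeded wild type by 0.37 (SE 0.148), or 1.29-fold, with a gap of 0.30 between the nearest arrays. The wild-type arrays were 0.08 apart and the mutant arrays 0.05. On the log2 scale the step from wild type to the mutant amounted to 10.8% of the step from wild type to the overexpressor.

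The log2 value of AT3G22060 was 4.38 and 4.98 on the wild-type arrays, 6.18 and 5.78 on the mutant arrays, and 7.49 and 7.5 on the overexpressor arrays. Here too the 3 groups did not overlap, and the mutant lay between the other two. Group means were 4.68 ± 0.42 (SD, n = 2) in wild type, 5.98 ± 0.28 (SD, n = 2) in the mutant and 7.5 ± 0.01 (SD, n = 2) in the overexpressor.

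Compared with wild type, the overexpressor was higher by 2.82 log2 units (SE 0.230), or 7.04-fold, with 5.70-fold between the nearest arrays and 8.69-fold between the farthest. The mutant exceeded wild type by 1.30 (SE 0.230), or 2.46-fold. The nearest arrays of these groups were 0.80 apart, the wild-type arrays 0.60 and the mutant arrays 0.40. The overexpressor exceeded the mutant by 1.52 (SE 0.230), or 2.86-fold, with 1.31 between the nearest arrays. The step to the mutant was 46.2% of the step to the overexpressor on the log2 scale.

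**Figure D1:**
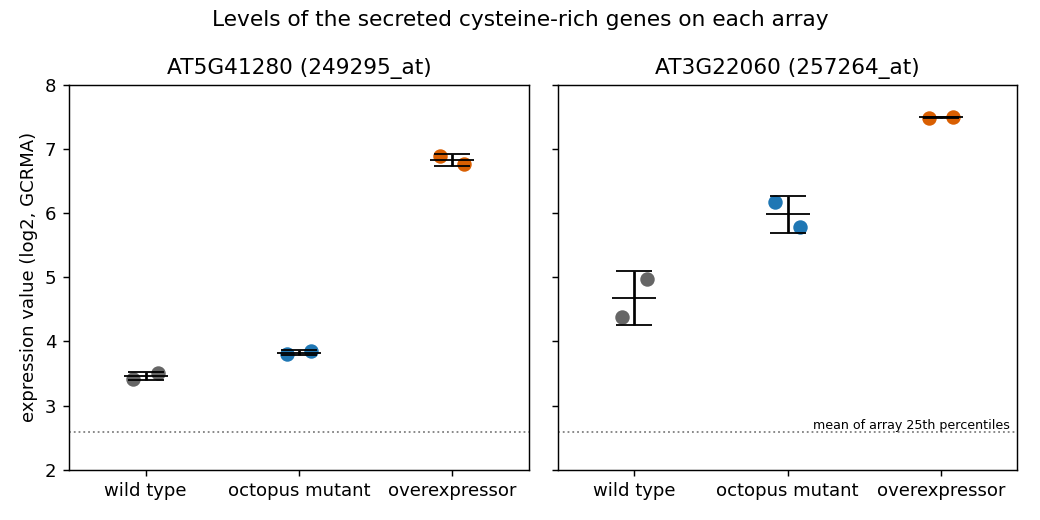
Expression value (log2, GCRMA) of AT5G41280 and AT3G22060 on each array (points), with the mean and SD of 2 arrays per group (bars) and the mean of the arrays' 25th percentiles (dotted line). AT5G41280 lies between 3.42 and 3.85 in wild type and the mutant and at 6.76 and 6.89 in the overexpressor, while AT3G22060 climbs from 4.38 and 4.98 over 5.78 and 6.18 to 7.49 and 7.5.

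The replicates of the genes differed in their closeness. The wild-type arrays were 0.60 apart for AT3G22060, a larger difference than that of 95.2% of the tested probe sets, whose median was 0.15. The mutant arrays were 0.40 apart, more than 88.3% of the tested probe sets, and the overexpressor arrays 0.01 apart, where 1.92% were closer. For AT5G41280 the arrays of each group were closer than the median, with 27.5% of the tested probe sets closer in wild type. In the mutant 21.4% were closer, and in the overexpressor 36.3%. The step of AT3G22060 from wild type to the mutant was 1.0 log2 unit with wild-type array 1 left out and 1.60 with wild-type array 2 left out. With mutant array 1 left out it was 1.10, and with mutant array 2 left out 1.5.

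Both genes had arrays that did not overlap in each of the 3 comparisons, and this is common with 2 arrays a group. Among the 12363 tested probe sets, 30.5% were higher in the mutant than in wild type without overlap, 21.9% were higher in the overexpressor than in wild type, and 28.8% were higher in the overexpressor than in the mutant. By rank of the log2 difference over all tested probe sets, counted from the largest rise, AT5G41280 was at 17 in the overexpressor against wild type and AT3G22060 at 21. Against the mutant they were at 30 and 164. In the mutant against wild type AT3G22060 was at 90, and AT5G41280 at 1997, between the 5th and 95th percentiles of all probe sets (-0.77 and 0.70) in that comparison. The comparisons share arrays, so their ranks are not independent.

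**Figure D2:**
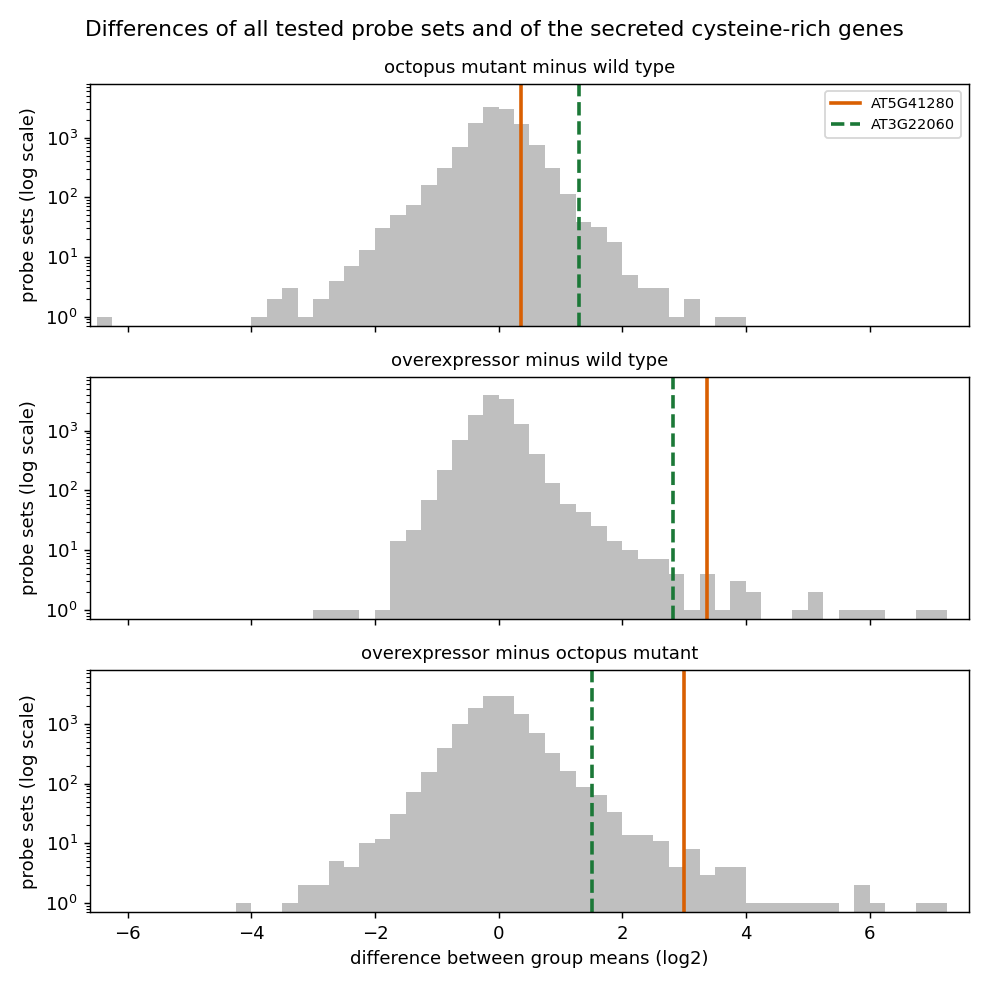
Number of tested probe sets (log scale) by difference between group means (log2) in the mutant against wild type, the overexpressor against wild type and the overexpressor against the mutant, with AT5G41280 (solid line) and AT3G22060 (dashed line). AT5G41280 lies at 0.37, 3.37 and 3.0 and AT3G22060 at 1.30, 2.82 and 1.52.

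The order shown by both genes, wild type lowest and the overexpressor highest with no overlap between groups, was the rarest of the 6 possible orders. It held for 221 of the 12363 tested probe sets (1.79%), and the other orders held for 319 to 647. Both genes were chosen by their levels in these groups, so the counts describe their order and test nothing. Sizes set after the values were seen gave smaller counts. In 4 probe sets both steps were at least 1 log2 unit, and 3 of them name 1 gene: AT3G22060, AT4G33720 and AT2G41090. AT4G33720 had means of 5.74 (wild type), 6.83 (mutant) and 10.8 (overexpressor). The means of AT2G41090 were 7.16, 8.32 and 11.3. In both of these the second step was the larger, at 3.99 and 2.99 log2 units, while the steps of AT3G22060 were 1.30 and 1.52. AT5G41280 was among 26 probe sets whose lowest overexpressor array stood at least 2 log2 units above every wild-type and mutant array. Of these 26, 12 name 1 gene, OPS among them. AT5G41280 and OPS had means below 4 in wild type and the mutant. They reached the mean of 4 required for testing only through the overexpressor. Probe sets that entered in this way add to this count and to the ranks above.

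The genes most like each were taken as the 5 with the highest Pearson r over the 6 arrays, out of 6531 tested probe sets that name 1 gene. Since the arrays form 3 groups, r mainly compares group means, says nothing of the size of a change, and is given as a description. The genes most like AT5G41280 were AT1G19960, AT1G13470, AT3G24180, AT1G26250 and AT3G54040, with r between 0.994 and 0.997. Their sizes differed widely. AT1G19960 was 6.04 log2 units higher in the overexpressor than in wild type, AT1G26250 was 3.68 higher, AT1G13470 was 3.04 higher and AT3G54040 was 2.17 higher, while AT3G24180 was 0.48 higher. The log2 value of AT1G13470 was 3.09 and 3.02 in wild type, 3.17 and 3.06 in the mutant, and 6.07 and 6.12 in the overexpressor. Wild type stood at the floor for AT1G19960, at 2.63 and 2.61, with 2.87 and 2.74 in the mutant and 8.79 and 8.53 in the overexpressor, so that the size of its difference is limited by background. The mutant differed from wild type by 0.02 to 0.56 in these 5 genes. AT1G19960 and AT1G13470, like AT5G41280, were tested only through their level in the overexpressor.

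The genes most like AT3G22060 were TPP2, which encodes tripeptidyl peptidase II, a large protease of the cytosol, and AT4G02480, AT1G11330, AT2G36690 and AT5G20110, with r between 0.981 and 0.992. All 5 showed the same graded order, with smaller steps. AT1G11330 came nearest in size, with 3.57 and 3.56 in wild type, 4.24 and 4.17 in the mutant, and 5.07 and 4.94 in the overexpressor. TPP2 was 0.24 higher in the mutant than in wild type and 0.46 higher in the overexpressor. AT4G02480 was 0.54 higher in the overexpressor, AT5G20110 was 0.68 higher, AT2G36690 was 1.31 higher and AT1G11330 was 1.44 higher. The r between AT5G41280 and AT3G22060 was 0.914. AT3G22060 came at place 131 among the genes most like AT5G41280, and AT5G41280 at place 77 among those most like AT3G22060.

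**Figure D3:**
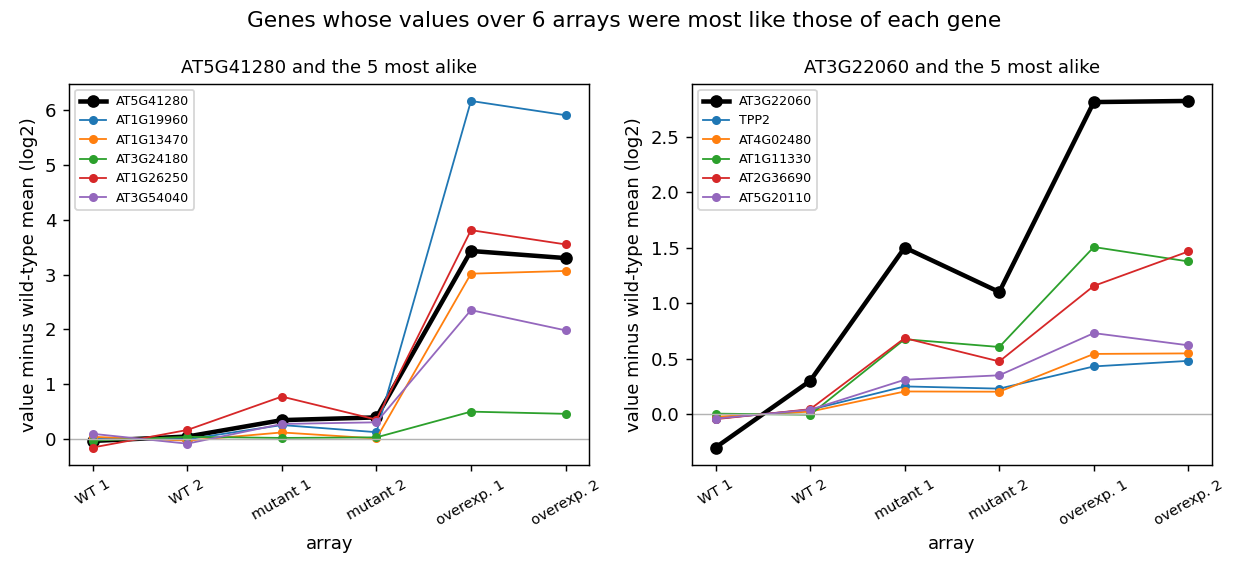
Value minus the wild-type mean (log2) on each of the 6 arrays for AT5G41280 and AT3G22060 (thick lines) and for the 5 genes with the highest Pearson r to each (thin lines, joining the values of a gene). The genes like AT5G41280 stay within 1 log2 unit in the mutant and end between 0.48 and 6.04 on average in the overexpressor, and those like AT3G22060 climb in the same order by less than AT3G22060 itself.

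The rest of the family could be followed only in part. A gene counts as measured here only where a probe set names it alone in the annotation used. That annotation leaves 8794 probe sets unlisted, so other genes of the lists may still be on the array. Of 96 further DUF26 genes on lists of CRKs, PDLPs and other secreted members, 11 had a probe set naming them alone, of which 10 are secreted members and 1 is a CRK. Of the 8 PDLPs none had one. Of these 11 genes 1, AT5G48540, had a mean of at least 4 and was tested. The other 10 lay between 2.00 and 2.57 on all arrays, at the floor, and differed between groups by at most 0.18. None of the 10 passed limma in any comparison without a filter (smallest adjusted p = 0.41). In that fit 1009 of all 22746 probe sets passed in the mutant against wild type. In the overexpressor 226 passed against wild type and 1531 against the mutant. With so small a share passing, and values at the floor, the absence of calls says little about these genes. The 10 genes include AT3G21960, AT3G21970, AT3G22040 and AT3G22050, whose locus names place them in the same stretch of the genome as AT3G22060, and the CRK AT4G28670.

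AT5G48540, a secreted member of the family, did not follow the order of AT5G41280 and AT3G22060. Its log2 value was 5.43 and 5.77 in wild type, 6.63 and 6.96 in the mutant, and 6.62 and 6.18 in the overexpressor. Wild type lay below both lines, and the mutant was highest. The lines nearly touched without overlap, at 6.63 on the lowest mutant array and 6.62 on the highest overexpressor array. AT5G48540 rose 2.29-fold in the mutant against wild type (1.20 log2 units, SE 0.212, limma adjusted p = 0.0148). Among all tested probe sets 14.0% passed in this comparison, 6.84% upward. Without wild-type array 1 or either mutant array AT5G48540 did not pass (highest limma adjusted p = 0.105), with both groups still apart by at least 1.02.

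In the overexpressor AT5G48540 differed from wild type by 0.80 (SE 0.212, limma adjusted p = 0.107), where 2.53% of the tested probe sets passed, 1.49% upward. Against the mutant it differed by -0.40 (SE 0.212, limma adjusted p = 0.235), where 18.4% passed, 8.8% upward. The corresponding differences of AT3G22060 were 2.82 and 1.52, and those of AT5G41280 were 3.37 and 3.0. Whether the differences of the 3 genes differ from each other was not tested.

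**Figure D4:**
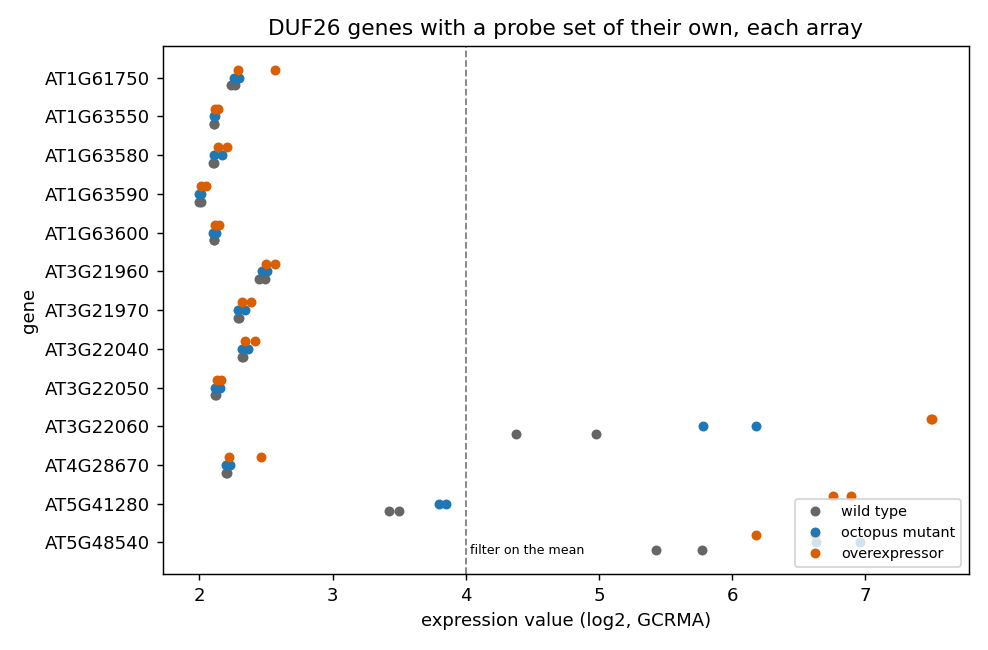
Expression value (log2, GCRMA) on each array of AT5G41280, AT3G22060 and the 11 other DUF26 genes with a probe set naming them alone. Genes are listed by locus, and the dashed line is the minimum mean of 4 for testing. Values of 10 genes stay between 2.00 and 2.57 in all groups, and AT5G48540 lies at 5.43 and 5.77 in wild type and between 6.18 and 6.96 in both lines.

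The genes next to the pair on the chromosomes that could be measured had means below 4. Of the 5 protein-coding genes on each side of AT5G41280, 4 had a probe set naming them alone, and the largest difference between the overexpressor and wild type was 0.34, in AT5G41270. The neighbours AT5G41290 and AT5G41300, which were on the DUF26 list, had no probe set naming them alone. Of the 10 neighbours of AT3G22060, 4 were measured, with at most 0.50 between the overexpressor and wild type, in AT3G22090. Among these 4 are AT3G22040 and AT3G22050, already given above as DUF26 genes at the floor. None of these 8 measured neighbours passed limma without a filter (smallest adjusted p = 0.384). Of all 22746 probe sets in that fit, 1009 passed in the mutant against wild type. For the overexpressor 226 passed against wild type and 1531 against the mutant. At such shares, and at means below 4, the absence of calls among 8 genes says little about the neighbourhood. Whether the probes of AT5G41280 or AT3G22060 also bind transcripts of near-identical family members was not tested.

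Genes of the salicylic acid response, to which DUF26 genes are known to belong in part, could be followed through 2 of 25 listed members. WRKY53, a transcription factor of defence and senescence, stood at 4.54 and 4.38 in wild type, 4.34 and 3.89 in the mutant, and 6.02 and 6.19 in the overexpressor. WRKY53 rose by 1.99 log2 units (SE 0.195) in the overexpressor against the mutant (limma adjusted p = 0.0019). In that comparison 8.8% of the tested probe sets passed upward. Without each array in turn the rise of WRKY53 ran from 1.77 to 2.22. Against wild type the rise of 1.65 passed (limma adjusted p = 0.0108) but was lost on leaving out wild-type array 1, wild-type array 2 or overexpressor array 2 (highest limma adjusted p = 0.0763). Upward calls in the overexpressor against wild type made up 1.49% of the tested probe sets. SAG101, a partner of EDS1 in defence signalling, differed in the overexpressor by 0.46 from wild type (limma adjusted p = 0.212). From the mutant it differed by 0.40 (limma adjusted p = 0.166). In the mutant against wild type WRKY53 differed by -0.35 (adjusted p = 0.283) and SAG101 by 0.06, where AT3G22060 was 1.30 higher. Of 15 listed jasmonate and ethylene genes 1 was measured, the defensin gene PDF1.2, below the filter, with group means of 3.15 (wild type), 3.28 (mutant) and 3.63 (overexpressor).

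Some markers of tissue and of RNA quality moved with the groups. Of 6 root markers 3 were measured, and the log2 of their summed level was 12.4 and 12.5 in wild type, 12.4 and 12.5 in the mutant and 12.1 and 12.0 in the overexpressor. PYK10, a root beta-glucosidase, made up nearly all of this sum. In wild type PYK10 stood at 12.4 and 12.5, against 5.93 and 5.93 for EXPA7 and 5.36 and 5.63 for EXPA18. Downward calls in the overexpressor against the mutant numbered 1181 of the 12363 tested probe sets. Among them PYK10 fell by 0.38 (limma adjusted p = 0.0395). It did not pass with the replicate number as a block (limma adjusted p = 0.0692) or without a filter (limma adjusted p = 0.12). The call was also lost on leaving out mutant array 1, mutant array 2 or overexpressor array 2. Without each array in turn the difference of PYK10 ran from -0.46 to -0.29. EXPA7 differed by -0.13 and EXPA18 by 0.15, and neither passed. Against wild type the overexpressor differed by -0.42 in PYK10, -0.55 in EXPA7 and -0.04 in EXPA18, and none passed. The phloem sugar exporter SWEET11 was the 1 measured of 6 phloem markers. It stood at 10.5 and 10.6 in wild type, 9.67 and 9.95 in the mutant, and 10.2 and 10.4 in the overexpressor. In the mutant SWEET11 differed from wild type by -0.78 (limma adjusted p = 0.0102), where 14.0% of the tested probe sets passed. The overexpressor exceeded the mutant by 0.49 (limma adjusted p = 0.0358), where 18.4% passed. Without a filter the first passed (limma adjusted p = 0.0313) and the second did not (limma adjusted p = 0.0797). Without each array in turn these differences ran from -0.92 to -0.64 and from 0.35 to 0.63. The leaf marker RCA, 1 of 6, lay between 13.7 and 13.9 throughout. No flower or senescence marker had a probe set naming it alone in the annotation used. For the GAPDH control the 3' minus the 5' signal, on the log2 scale, was 1.92 and 1.72 in the overexpressor, 1.8 and 1.39 in the mutant and 1.42 and 1.12 in wild type. Signal of the 25S rRNA control was higher on the mutant arrays (8.03 and 11.2) than on the wild-type arrays (6.42 and 5.86) or the overexpressor arrays (6.28 and 6.61). It set apart the mutant arrays, on which AT3G22060 was 1.30 above wild type and AT5G48540 passed. The part of these in the levels of AT5G41280, AT3G22060 and AT5G48540 was not tested.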

How the data were processed

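The deposited values are on the log2 scale, as judged from their range. The authors used GCRMA according to the submitters' processing notes, with no version stated. GCRMA corrects background by probe sequence, normalises arrays and summarises each probe set. The sources used here do not say which arrays shared a normalisation. Detection calls were not used. Gene names come from the platform annotation, in which 13513 name 1 gene, 503 name several and 8794 are not listed, and 13436 of the first matched RefSeq TAIR10.1 by gene number. RefSeq gave symbols and gene order. No coordinates are printed, since no genome build is stated for the array, and sequences of the genes were not used here.

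All 6 arrays entered one fit with limma 3.58.1 in R 4.3.3 (eBayes with trend, two-sided tests, no covariates). Leaving out 64 controls, 12363 probe sets whose mean reached 4 were tested, with Benjamini-Hochberg adjustment over all of them and a threshold of 0.05. AT5G41280 passed the filter through its level in the overexpressor. SEs come from this fit.

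The genes, lists and tests were chosen with earlier results of these data known, and the DUF26 lists were compiled by locus from general knowledge of the family. Named are both genes, the 5 most alike to each, each DUF26 gene that passed and others of the lists. Neighbouring genes and the counts of patterns were added after the data were examined. Same-numbered arrays did not deviate together in all pairs of groups, so the numbers were not taken as pairs.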

Additional observations from a re-analysis of the deposited data

How the results depend on the processing

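Quantile normalization and centring of the arrays moved the 6 differences of AT5G41280 and AT3G22060 by at most 0.03 log2 units, and the filter, the trend, the fit of 4 arrays and the replicate block leave them as they are by construction. Since the arrays of these groups do not overlap, leaving out an array cannot turn a direction. Without each array in turn the differences of AT5G41280 ran from 0.33 to 0.41 (mutant against wild type), 3.30 to 3.43 (overexpressor against wild type) and 2.94 to 3.07 (overexpressor against mutant), and those of AT3G22060 from 1.0 to 1.60, 2.52 to 3.12 and 1.32 to 1.72. The minimum mean of 6 left AT5G41280 out. The counts of probe sets called, 1736, 313 and 2269, ran from 167 to 1807, 57 to 373 and 363 to 1931, and that of the 1 tested family gene in the mutant from 0 to 1. These ranges come from leaving out each array in turn, where the group left with a single array is assumed to vary like the others. Higher counts came with quantile normalization (1808, 382 and 2379) and with centring of the arrays (1839, 394 and 2388). In the mutant 1009 passed without a filter. In the overexpressor against wild type 191 passed with a mean of at least 6, 75 in the fit of 4 arrays and 118 with the replicate number as a block. The numbers as labelled were not taken as pairs, and whether arrays of a number were handled together cannot be told from the values. Replicate differences correlated at -0.24 (wild type and mutant), 0.16 (wild type and overexpressor) and -0.31 (mutant and overexpressor). With the mutant numbers exchanged, added after the data were examined, these are positive throughout, and 2335 passed in the mutant against wild type, 771 in the overexpressor against wild type and 2972 in the overexpressor against the mutant.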

Other observations

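A further 3 probe sets name several DUF26 genes each, 1 of them 14 genes, and are not assigned to a gene here. They lay between 2.36 and 2.87 on the 6 arrays, at the floor, with differences between groups of at most 0.26 and a smallest limma adjusted p of 0.409 without a filter. The highest value of each was on overexpressor array 2, the array with the highest 25th percentile (2.70).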
